A study of Homo sapiens with 4 samples.

Results

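The voltage-gated calcium channel alpha-1 subunits are the 10 genes CACNA1A, CACNA1B, CACNA1C, CACNA1D, CACNA1E, CACNA1F, CACNA1G, CACNA1H, CACNA1I and CACNA1S. They were taken by symbol and make up 10 of the 36601 features in each count matrix. Single nuclei of enteric ganglioids, 3-dimensional aggregates of enteric neurons and their precursors grown from the H9 line of human embryonic stem cells, were sequenced in 4 samples. Of these, 2 were control ganglioids and 2 had been exposed to PP121, which inhibits multiple receptor tyrosine kinases, at 2 µM between days 15 and 20. All samples share the 1 line and the same induction of enteric neural crest, so the replicates are repeat differentiations of 1 genetic background and p-values measure only the spread between these samples. The deposited annotation dates replicate 1 of both groups to day 42 and replicate 2 to day 38. The study itself names a single day for every sample. Day and differentiation replicate therefore cannot be told apart.

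An alpha-1 subunit forms the pore and the voltage sensor of a calcium channel. CACNA1A (P/Q-type), CACNA1B (N-type) and CACNA1E (R-type) open on strong depolarization and are known for feeding transmitter release. CACNA1C, CACNA1D, CACNA1F and CACNA1S are L-type channels, which couple activity to transcription, pacemaking and, in muscle, contraction. CACNA1G, CACNA1H and CACNA1I are T-type channels, which open near the resting potential. In enteric neurons, calcium entry through such channels drives release and, in some of these neurons, the slow afterhyperpolarization that sets firing.

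The 4 samples held 2912 to 4587 nuclei with a class annotated by the authors, with a median of 6289 to 7071 UMIs (unique molecular identifiers, each a counted molecule) per nucleus. A level is given here as CPM, the UMIs of a gene per 1000000 UMIs summed over the nuclei of a class in a sample. The neuron marker list summed to 640 to 786 CPM in enteric neurons, 144 to 291 CPM in progenitors 1 and 2, and 84.1 to 117 CPM in mesenchymal nuclei. The authors' identity columns mark 16, 16, 143 and 61 of the annotated enteric neurons as non-neuronal (control replicate 1, control replicate 2, PP121 replicate 1 and PP121 replicate 2, the order used throughout), so each comparison of all neurons was also run without them. Annotated barcodes shared by any pair of samples numbered 0 to 8. A deposited column of sample names disagrees with the sample titles of both control samples, and the titles were followed.

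Enteric neurons held UMIs of all 10 members, but 4 genes carried most of them. CACNA1B stood at 314 and 317 CPM in the control samples (replicates 1 and 2) and at 321 and 380 CPM in the PP121 samples. It was the most abundant member in every sample, with 30.3% to 44.9% of the neurons' alpha-1 UMIs. CACNA1C, the L-type subunit of heart, smooth muscle and many neurons, had 283, 226, 294 and 220 CPM in the same order. CACNA1A had 215, 169, 262 and 149 CPM. Both were higher in each replicate 1 than in either replicate 2, whatever the treatment. CACNA1D, the L-type subunit that opens at more negative voltages, had 154, 103, 110 and 48.2 CPM, the widest spread relative to its level among these 4 genes. CACNA1E had 34.6, 22.9, 27.7 and 22.7 CPM, highest in control replicate 1.

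The T-type subunits were lower. CACNA1H lay between 12.8 and 19.2 CPM, CACNA1G between 10.1 and 13.8 CPM and CACNA1I between 1.71 and 4.22 CPM in neurons. CACNA1S, the skeletal muscle L-type subunit, had 7 to 14 UMIs in the neurons of each sample, and MYOD1 and MYOG, which define skeletal muscle, stayed at or below 0.515 CPM there. CACNA1F, the photoreceptor L-type subunit, had 20, 3, 2 and 3 UMIs, and 13 of the 20 in control replicate 1 came from 1 nucleus. With all samples, CACNA1F passed the filter on low counts in no comparison and CACNA1S in some, while the other 8 members passed in each.

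Divided by gene length, the order changed below CACNA1B. Nuclear RNA is rich in unspliced transcripts, so CPM per kb of gene span is given first. CACNA1B stood at 1.35 ± 0.127 CPM per kb of span, CACNA1A at 0.663 ± 0.167, CACNA1C at 0.352 ± 0.0524, CACNA1D at 0.325 ± 0.136, CACNA1H at 0.248 ± 0.0418, CACNA1G at 0.180 ± 0.0233 and CACNA1E at 0.0550 ± 0.0113 (SD, n = 4). On this scale CACNA1C, CACNA1D, CACNA1H and CACNA1G formed a run in which the samples of each gene overlapped those of the next, whereas CACNA1B exceeded CACNA1A and CACNA1A exceeded CACNA1C in every sample. On the scale of the longest annotated transcript the leading 4 kept their order, with 34.0, 22.9, 19.0 and 11.5 CPM per kb, and CACNA1H fell to 2.07 beside CACNA1E at 1.67 and CACNA1G at 1.47 CPM per kb. The study's methods name a library kit that reads the end of each transcript, not its whole length, and a UMI counts a molecule of any length. Whether intronic reads were counted is not given in the sources used here. Neither length is therefore certain to be a right divisor, and division by length may not be called for.

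Upstream sequence is shown for 4 members that differ between neurons and other classes or between transmitter identities, to set their levels beside their base composition. The 250 bases before the annotated start are from RefSeq on build GRCh38.p14, in the direction of transcription, and capitals mark the GC box, spelled GGGCGG, and the CCAAT box, spelled as its name, each searched on both strands. Overlapping GC boxes were counted singly, and no GC box overlapped a CCAAT box. They lie at chr9:137877532-137877781 (plus strand) for CACNA1B, chr19:13506480-13506729 (minus) for CACNA1A, chr1:181483267-181483516 (plus) for CACNA1E and chr3:53494361-53494610 (plus) for CACNA1D.
CACNA1B: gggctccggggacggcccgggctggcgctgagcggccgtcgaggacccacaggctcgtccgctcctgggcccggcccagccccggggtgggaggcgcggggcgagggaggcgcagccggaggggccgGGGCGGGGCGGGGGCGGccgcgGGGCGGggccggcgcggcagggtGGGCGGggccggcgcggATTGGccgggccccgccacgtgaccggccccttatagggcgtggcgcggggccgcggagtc
CACNA1A: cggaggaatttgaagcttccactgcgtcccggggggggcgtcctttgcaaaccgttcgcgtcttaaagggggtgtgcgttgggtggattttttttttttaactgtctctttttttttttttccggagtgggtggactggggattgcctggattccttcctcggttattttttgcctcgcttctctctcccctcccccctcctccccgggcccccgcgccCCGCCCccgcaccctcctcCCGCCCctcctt
CACNA1E: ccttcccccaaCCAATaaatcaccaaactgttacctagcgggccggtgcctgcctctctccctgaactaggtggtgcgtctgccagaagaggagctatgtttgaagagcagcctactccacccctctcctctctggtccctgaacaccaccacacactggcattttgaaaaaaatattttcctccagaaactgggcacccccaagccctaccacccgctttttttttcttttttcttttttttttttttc
CACNA1D: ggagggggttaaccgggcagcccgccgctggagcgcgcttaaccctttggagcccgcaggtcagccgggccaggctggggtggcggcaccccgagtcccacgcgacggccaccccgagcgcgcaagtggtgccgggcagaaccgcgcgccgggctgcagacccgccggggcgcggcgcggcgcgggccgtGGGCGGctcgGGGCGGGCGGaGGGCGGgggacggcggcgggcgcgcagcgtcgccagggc

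Of the 10 members, 8 had an entry in the promoter table. CACNA1B, CACNA1C and CACNA1D were at 85.2%, 85.6% and 81.6% GC with 39, 51 and 41 CG dinucleotides, whereas CACNA1E and CACNA1F were at 48.8% and 45.2% GC with 4 and 6. The median over 35116 promoters was 58.0% GC and 11 CG dinucleotides. GC boxes numbered 5 for CACNA1B, 6 for CACNA1C, 4 for CACNA1D and 2 for CACNA1A, 1 each for CACNA1F and CACNA1S, and 0 for CACNA1E and CACNA1I, and 42.6% of all promoters of this length hold one. CCAAT boxes were found for CACNA1B, CACNA1E, CACNA1I and CACNA1S (32.0% of all promoters) and TATAAA for none of the 8 (10.7% of all promoters). The 3 most GC-rich sequences belong to members among the 4 most abundant in neurons, but CACNA1E at 48.8% GC had the largest log2 difference between neurons and progenitors of any member tested. For CACNA1C and CACNA1E the annotated start lies inside the gene span used for the levels per kb. Their GC and CG values describe the bases before that start alone, and the bases before the span were not examined. A match describes these letters alone, and factor binding was not measured.

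**Figure D1:**
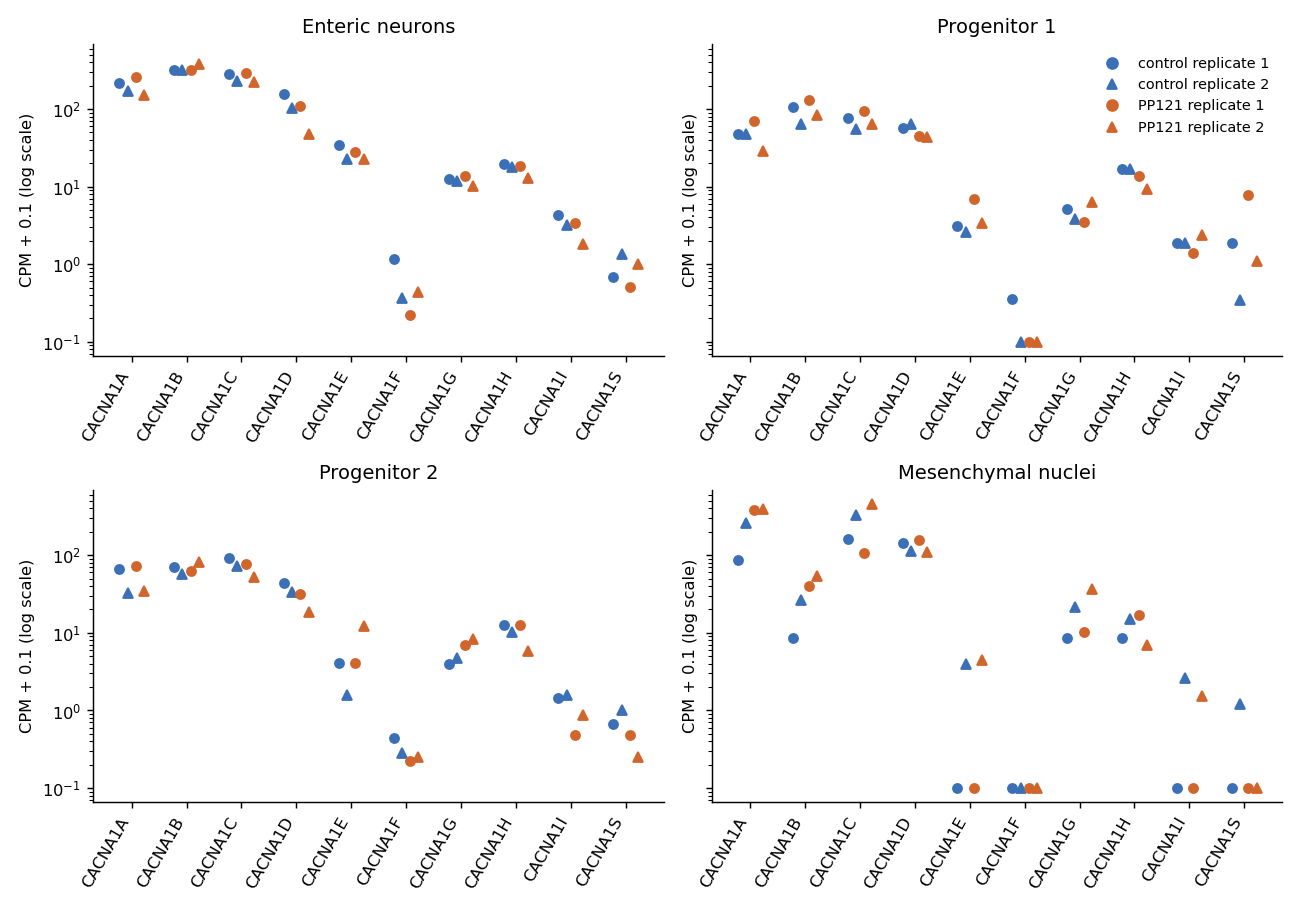
Level of each alpha-1 subunit as CPM + 0.1 on a log axis in enteric neurons, progenitors 1 and 2 and mesenchymal nuclei, with 1 point per sample, colour for treatment and marker shape for replicate. In neurons CACNA1B is the highest member at 314 to 380 CPM, and in mesenchymal nuclei it falls to 8.41 to 53.6 CPM while CACNA1A and CACNA1C stay high.

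Which members distinguish neurons from the progenitors of the same ganglioids was examined with the sample as a block. Of the 9 members tested, 8 were higher in neurons (edgeR quasi-likelihood test, Benjamini-Hochberg adjusted p below 0.05), where 24.7% of all genes tested were higher. Levels in progenitors were 80.9, 59.4, 94.1 and 82.1 CPM for CACNA1B, against 314 to 380 CPM in neurons. CACNA1E had 3.72, 1.92, 5.35 and 9.35 CPM in progenitors, against 22.7 to 34.6 CPM in neurons. No sample's progenitors reached the lowest neuron level of either gene. The log2 difference was 2.57 ± 0.281 (SE, adjusted p = 2.76e-05) for CACNA1E, 2.15 ± 0.0985 for CACNA1B (5.88e-08), 2.07 ± 0.0865 for CACNA1A (3.86e-08) and 1.88 ± 0.0784 for CACNA1C (3.85e-08). CACNA1D followed at 1.41 ± 0.131 (7.94e-06), then the T-type genes CACNA1I at 1.38 ± 0.288 (0.00244), CACNA1G at 1.28 ± 0.194 (2.99e-04) and CACNA1H at 0.64 ± 0.122 (0.00138). The members' median was 1.41, against -0.00153 over all genes. CACNA1S was at -0.77 ± 0.603 (0.323), and at 0.29 (0.594) without 2 progenitor nuclei that each held over 10 UMIs of CACNA1E or CACNA1S.

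The partners of the channels were mostly higher in neurons too. Of 16 auxiliary subunits (alpha2delta, beta and gamma genes, which set surface expression and gating), 11 rose and 1 fell, with a median log2 difference of 0.93. CACNA2D3 was at 3.02 (adjusted p = 2.23e-08), CACNB4 at 1.69 (3.21e-07), CACNG2, a gamma gene better known as an AMPA receptor partner, at 3.16 (4.83e-07) and CACNA2D1 at 1.51 (1.52e-06), while CACNB2 fell by 0.35 (0.00321). Of 11 active zone genes tested, which hold channels and vesicles together at release sites, 9 were higher and 0 lower, led by the scaffolds RIMBP2 at 1.87 (3.85e-08), RIMS1 at 2.09 (8.92e-08), ERC2 at 1.71 (1.25e-07) and BSN at 1.60 (5.84e-07). Of 11 direct regulators tested, 7 were higher and 1 lower. CALN1 was at 0.96 (2.42e-05), CABP1 at 1.97 (9.62e-04) and REM2 at 1.30 (0.00129), and GEM, a small GTPase that inhibits high-voltage-activated channels, fell by 1.20 (2.94e-05). The classes were called by the authors from clusters of these same counts, which held the alpha-1 genes as well, so the p-values describe the separation and are not an independent test of it.

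Shares of nuclei were compared after thinning each nucleus to 2000 UMIs. At that depth 42.1%, 40.4%, 41.1% and 48.3% of neurons held a CACNA1B UMI, against 10.6%, 7.89%, 12.7% and 11.0% of progenitors. Without thinning the neuron shares were 72.5%, 72.6%, 73.3% and 78.3%. In mesenchymal nuclei, whose median depth of 7227 to 8401 UMIs was like the 7210 to 8102 of neurons, the thinned shares were 0%, 3.95%, 6.06% and 4.76%, where 0 of 40 nuclei allows up to 7.50%. The neuron share was above the mesenchymal share in every sample. At least 1 alpha-1 gene was counted in 80.8%, 73.4%, 81.9% and 72.6% of thinned neurons and in 37.0%, 31.3%, 38.8% and 29.7% of thinned progenitors. At least 3 were counted in 10.5% to 17.9% of neurons and in at most 1.63% of progenitors. Intervals and limits of this kind cover counting error only.

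Mesenchymal nuclei held little CACNA1B and CACNA1E, and as much CACNA1A and CACNA1C as some neuron samples. CACNA1B had 8.41, 26.3, 40.4 and 53.6 CPM there and CACNA1E 0, 3.87, 0 and 4.32 CPM, and the neurons of every sample were higher for both. CACNA1A, in contrast, had 86.9, 264, 380 and 392 CPM and CACNA1C 160, 325, 108 and 451 CPM in mesenchymal nuclei, ranges that overlap those of neurons. Of the 8 members tested, 2 were higher in neurons, against 16.3% of all genes: CACNA1B at a log2 difference of 3.39 ± 0.258 (edgeR adjusted p = 3.12e-06) and CACNA1E at 2.78 ± 0.363 (1.55e-04). CACNA1C was at 0.07 (0.913), CACNA1A at -0.42 (0.341), CACNA1D at -0.45 (0.117), CACNA1G at -0.91 (0.0650), CACNA1H at 0.56 (0.130) and CACNA1I at 0.65 (0.431). Mesenchymal nuclei numbered only 40 in control replicate 1 and 33 in PP121 replicate 1. For CACNA1C, neurons were higher than these few nuclei in each replicate 1 and lower than mesenchymal nuclei in each replicate 2. Without control replicate 1, CACNA1A (-0.85, 0.00774) and CACNA1G (-1.14, 0.0216) were lower in neurons, and without PP121 replicate 1 CACNA1G was (-1.11, 0.0361).

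By share of all alpha-1 UMIs, neurons held 35.5% CACNA1B, 26.8% CACNA1C, 20.7% CACNA1A and 10.7% CACNA1D on average over the samples, and mesenchymal nuclei held 4.04%, 34.6%, 36.4% and 20.4%. The neuron markers summed to 84.1 to 117 CPM in mesenchymal nuclei and the mesenchymal markers to 1356 to 1704 CPM there, against at most 54.8 CPM in neurons and progenitors. Auxiliary subunits were higher in neurons than in mesenchymal nuclei for 8 of 15 and lower for 0, led by CACNG7 (3.20, adjusted p = 1.08e-05), CACNG4 (2.45, 3.70e-05), CACNG2 (3.64, 1.28e-04) and CACNB4 (1.34, 2.49e-04). Active zone genes were higher for 10 of 11, led by RIMS2 (3.25, 2.20e-07), SYT1 (2.02, 3.06e-06), BSN (2.55, 4.00e-06) and ERC2 (3.25, 4.50e-06). Regulators were higher for 5 of 11 and lower for 1, GEM (-2.76, 5.50e-06), followed by STAC (2.20, 0.00474), CALM2 (0.57, 0.0144) and CABP1 (2.13, 0.0191).

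**Figure D2:**
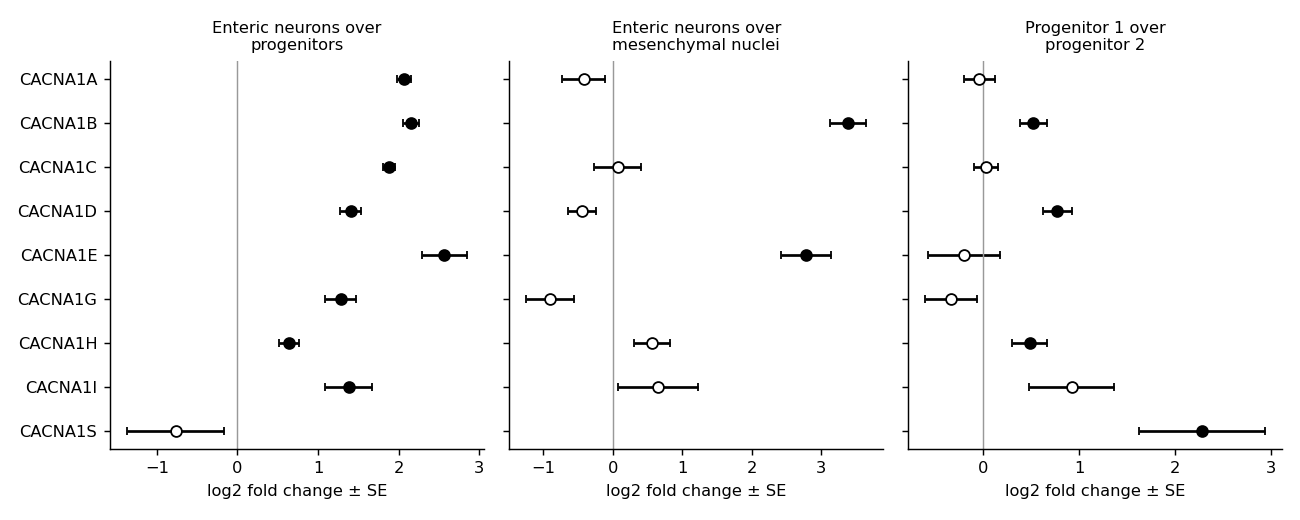
Log2 difference of each tested member with its SE in 3 class comparisons, enteric neurons against progenitors, enteric neurons against mesenchymal nuclei and progenitor 1 against progenitor 2, with filled points where the adjusted p is below 0.05. CACNA1B and CACNA1E lie to the right in both neuron comparisons, while CACNA1A (-0.42) and CACNA1C (0.07) did not pass against mesenchymal nuclei.

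Between the progenitor classes, 4 of 9 members were higher in progenitor 1 than in progenitor 2, where 26.2% of all genes tested were higher. CACNA1D had 56.3, 63.5, 44.3 and 43.7 CPM in progenitor 1 and 43.3, 33.1, 31.7 and 18.4 CPM in progenitor 2, a log2 difference of 0.77 ± 0.155 (edgeR adjusted p = 7.25e-04). The samples of the 2 classes did not overlap for CACNA1D. CACNA1B had 105, 63.5, 130 and 84.4 CPM against 70.0, 56.4, 62.3 and 81.1 CPM (0.52 ± 0.136, 0.00466), overlapping between samples but higher in progenitor 1 within each. CACNA1H was at 0.48 ± 0.183 (0.0365), a call that DESeq2 did not make and that was lost without control replicate 1 (0.0702), control replicate 2 (0.164) or PP121 replicate 2 (0.0771). CACNA1S passed at 2.28 ± 0.662 (0.00926), but of its 54 UMIs in progenitor 1 of PP121 replicate 1, 50 lay in 1 nucleus, and without that nucleus it had too few counts to be tested. Auxiliary subunits went the other way, with 1 of 13 higher in progenitor 1 (CACNA2D2) and 8 lower, where 29.1% of all genes tested were lower, led by CACNB2 (-1.88, 1.02e-07), CACNA2D1 (-0.77, 2.29e-05), CACNG4 (-0.96, 7.23e-05) and CACNB4 (adjusted p = 2.30e-04). Active zone genes split into 2 higher, SNAP25 (1.38, 2.52e-06) and UNC13A (1.31, 1.70e-05), and 6 lower, led by RIMS2 (-1.65, 7.31e-08), RIMS1 (-1.60, 1.17e-07) and ERC2 (-1.34, 3.58e-07), and 11 regulators into 4 higher, CBARP, GEM, CALM3 and RRAD, and 2 lower, STAC (-2.55, 1.88e-05) and STAC3 (-0.87, 0.00364).

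Transmitter identities were then compared within enteric neurons, each against the neurons without it, with the sample as a block. An identity was assigned by the authors from imputed values, and a nucleus may hold several. Imputation draws on all genes, so alpha-1 counts could have entered it, and the p-values here describe the separation and are not an independent test of it. Of 6321 neurons with these annotations 9.33% had no identity, 31.3% had 1 and 35.8% had 2. Of the 1128 nitrergic neurons, which make the inhibitory transmitter nitric oxide, 38.2% were also GABAergic and 36.5% also serotonergic.

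Nitrergic neurons had more of 5 of the 8 members tested (7.43% of all genes tested were higher). CACNA1E stood at 72.3, 53.3, 58.5 and 62.7 CPM in nitrergic neurons, and at 25.3, 16.5, 20.3 and 17.9 CPM in the others. The lowest nitrergic sample was above the highest of the rest, and the log2 difference was 1.66 ± 0.110 (edgeR adjusted p = 1.12e-06). CACNA1C had 394, 345, 452 and 403 CPM against 256, 204, 268 and 206 CPM, again without overlap (0.82, 3.92e-05). CACNA1D had 222, 144, 205 and 116 CPM against 138, 95.5, 90.6 and 40.6 CPM, which overlapped between samples but not within any (1.00 ± 0.138, 3.34e-04). CACNA1A was at 0.80 (5.07e-05) and CACNA1G at 0.81 (0.00444). CACNA1B, the most abundant member, had 313, 355, 312 and 435 CPM against 315, 312, 340 and 392 CPM and a difference of 0.10 (0.504), with 2 samples in each direction. CACNA1H was at -0.24 (0.427) and CACNA1I at 0.60 (0.286). The nitrergic neurons of PP121 replicate 2 numbered 91. Median UMI counts were 7180, 7927.5, 7608 and 8535 in nitrergic neurons and 7369.5, 7756.5, 6725 and 7714 in the others. Nitrergic neurons were thus deeper in all samples but control replicate 1, and the part of depth was not tested at a matched depth.

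Among the partners, 3 of 14 auxiliary subunits were higher in nitrergic neurons, CACNB4 (0.73, adjusted p = 2.57e-04), CACNG2 (0.86, 0.00521) and CACNG8 (0.69, 0.00730), and 0 lower. Of 11 regulators, 2 were higher and 0 lower. CALN1 (0.91, 3.96e-04) and STAC (1.54, 0.00377), an adaptor that slows inactivation of L-type channels, were those that rose. Of 11 active zone genes RIMS1 (0.58, 0.00143) and UNC13A (0.41, 0.0130) were higher.

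Glutamatergic neurons had less of 5 of 8 members, against 7.45% of all genes that were lower. CACNA1D had 93.1, 65.2, 81.4 and 39.1 CPM in glutamatergic neurons and 176, 144, 137 and 72.9 CPM in the others, a fall of 0.95 ± 0.0763 on the log2 scale (edgeR adjusted p = 7.69e-06). CACNA1C had 191, 166, 240 and 186 CPM against 317, 294, 350 and 330 CPM (-0.75, 1.08e-05), with no overlap. Both genes were lower in the glutamatergic neurons of 4 of 4 samples. CACNA1G (-0.71, 0.00412), CACNA1E (-0.68, 0.00533) and CACNA1A (-0.65, 3.48e-05) also fell, and CACNA1B was at -0.06 (0.553). Most nitrergic neurons are in the group that glutamatergic neurons were compared with, and the other way round, so these comparisons share nuclei and are not independent. Glutamatergic neurons were deeper, with median UMI counts of 7927, 9020.5, 7729 and 8633 against 7172, 6954, 6465 and 5947.5 in the others, and the part of depth in the result was not tested. Of 14 auxiliary subunits CACNA2D1 rose (0.69, 2.76e-04) and CACNA2D3 (-1.34, 7.76e-07) and CACNB4 (-0.37, 0.00807) fell. Active zone genes fell for 5 of 11, UNC13A (-0.57, 2.81e-04), RIMS1, PCLO, RIMBP2 and SNAP25. Of 11 regulators, CALM2 and GEM rose and CALN1 (-0.64, 5.12e-04) fell.

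GABAergic neurons were higher in 3 of 8 members, against 4.53% of all genes. CACNA1D had 201, 147, 139 and 68.0 CPM in GABAergic neurons and 110, 86.9, 93.2 and 44.7 CPM in the others (0.79 ± 0.0747, edgeR adjusted p = 1.01e-04). It was higher in the GABAergic neurons of 4 of 4 samples. GABAergic neurons were also deeper, with median UMI counts of 8047.5, 8078, 7287 and 8263.5 against 6782, 7646, 6496 and 7718 in the others. Serotonergic neurons were deeper than the others in every sample as well. The part of depth in these comparisons was not tested. CACNA1A was at 0.51 (6.55e-04) and CACNA1C at 0.42 (0.00135), while CACNA1E was at -0.32 (0.277), and at -0.60 (0.0139) without control replicate 1. Among auxiliary subunits the alpha2delta genes CACNA2D3 and CACNA2D1 had the largest differences. CACNA2D3 was at 3.01 (1.57e-04) and CACNA2D1 fell by 2.52 (6.39e-07). CACNB4 (0.53, 0.00357) and CACNA2D2 (0.46, 0.0170) were higher and CACNG5 (-1.31, 0.0313) lower, in all 3 of 16 auxiliary subunits higher and 2 lower. Active zone genes were higher for 6 of 11, led by RIMS1 (0.49, 0.00120), RIMBP2 (0.46, 0.00127), ERC2 (0.32, 0.00569) and PCLO (0.28, 0.00730), and 0 of 11 regulators passed.

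Cholinergic neurons, of which 80.1% were also GABAergic, had 3 of 8 members past the threshold, against 11.5% of all genes. CACNA1C (0.32, edgeR adjusted p = 0.00781) and CACNA1B (0.28, 0.0195) were higher. CACNA1E was lower in them in 3 of 4 samples, with 28.7, 16.4, 17.6 and 23.9 CPM against 37.6, 25.0, 33.8 and 22.6 CPM, and PP121 replicate 2 lay the other way (-0.47, 0.0441). DESeq2 did not call CACNA1E (0.158), and edgeR lost it without control replicate 1 (0.0878), control replicate 2 (0.147) or PP121 replicate 1 (0.334). The count of 3 was 1 without control replicate 1 and 1 without control replicate 2. CACNA2D3 rose (1.97, 1.31e-07) and CACNA2D1 fell (-2.03, 1.68e-07), and CACNA2D2, CACNB4 and CACNG4 were also higher among 15 auxiliary subunits. RIMBP2, ERC2, RIMS1 and RIMS2 rose among 11 active zone genes, and among 11 regulators CABP1 rose and CALN1 and GEM fell.

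Serotonergic and catecholaminergic neurons had 0 of 8 members past the threshold by edgeR and 0 by DESeq2, against 10.7% and 4.8% of all genes by edgeR. At an unadjusted p below 0.05 there were 2 members each, CACNA1A (0.32, adjusted p = 0.0520) and CACNA1D (0.23, 0.161) in serotonergic neurons and CACNA1H (0.40, 0.106) and CACNA1A (0.24, 0.170) in catecholaminergic neurons. Without PP121 replicate 2, CACNA1A passed in serotonergic neurons (0.40, 0.0252). The auxiliary subunits that passed were CACNA2D3 and CACNB4 (higher) and CACNA2D1 (lower) of 14 in serotonergic neurons, and CACNA2D1 and CACNG5 (higher) and CACNA2D3 (lower) of 14 in catecholaminergic neurons. CALM3 was lower among 10 regulators in serotonergic neurons and 0 of 11 passed in catecholaminergic neurons. The active zone genes SNAP25 and UNC13A were higher in catecholaminergic neurons.

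**Figure D3:**
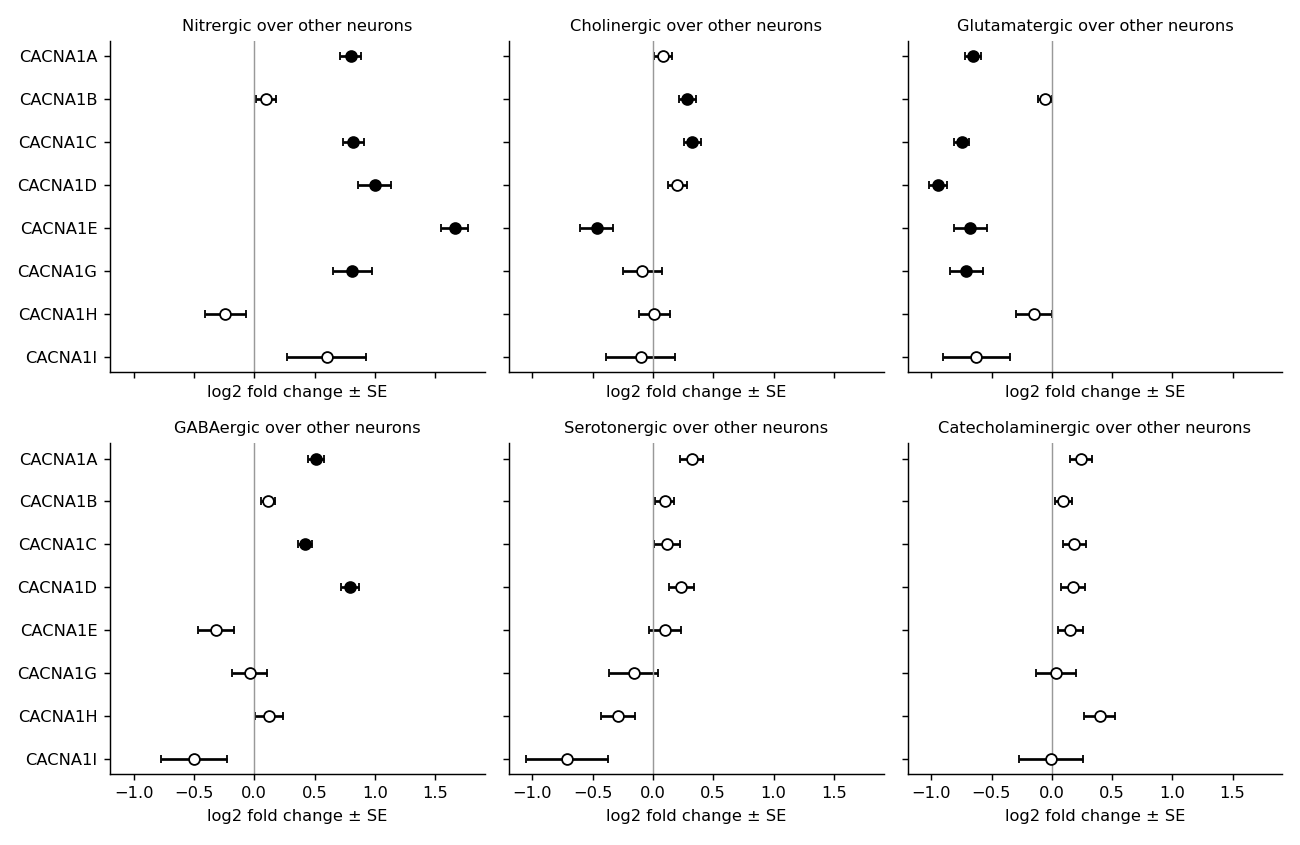
Log2 difference of each tested member between neurons with and without each of 6 transmitter identities, with SE and filled points where the adjusted p is below 0.05. In the nitrergic panel the member farthest from 0 is CACNA1E (1.66), and in the glutamatergic panel it is CACNA1D (-0.95). CACNA1B stays between -0.06 and 0.28 throughout.

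PP121 was compared with control in all enteric neurons, in progenitors and in nitrergic neurons. Without a block on the replicate, edgeR called 0 of 9, 0 of 9 and 0 of 8 members, against 0%, 0% and 0% of the 21243, 20260 and 15239 genes tested. At an unadjusted p below 0.05 there were 2549, 962 and 2131 genes, and 0, 2 and 0 members, CACNA1E and CACNA1D in progenitors. DESeq2 called 102, 43 and 131 genes and 0 members. Samples of the same replicate number moved together, so each comparison was repeated with a replicate block, at the cost of all but 1 residual degree of freedom. With the block 1 member passed in each, CACNA1D in neurons (14.8% of all genes tested passed), CACNA1E in progenitors (1.72%) and CACNA1A in nitrergic neurons (10.5%).

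CACNA1D was lower with PP121 in both pairs of neurons. It went from 154 CPM in control to 110 CPM with PP121 in replicate 1, a ratio of 0.713, and from 103 to 48.2 CPM in replicate 2, a ratio of 0.469. The groups overlapped, because PP121 replicate 1 was above control replicate 2. Means were 128 ± 36.0 CPM in control and 78.9 ± 43.4 CPM with PP121 (SD, n = 2), and the log2 difference was -0.66 ± 0.348 without the block (edgeR adjusted p = 0.489) and -0.73 ± 0.114 with it (6.22e-05). With the block it was -0.75 (0.00120) in clusters drawn on all samples together, -0.72 (0.0187) without the 5% deepest nuclei, -0.69 (0.00400) without the neurons marked non-neuronal and -0.73 (0.00260) in DESeq2. Without the block, leaving out PP121 replicate 1 gave -1.34 (2.18e-04) and leaving out PP121 replicate 2 gave -0.21 (0.876). In these fits the lone PP121 sample is assumed to vary as the 2 controls do, and it is set against controls of both days. In nitrergic neurons alone CACNA1D had ratios of 0.926 and 0.808 and a difference of -0.07 ± 0.141 with the block (0.822). Within GABAergic and within glutamatergic neurons, by the levels given above, CACNA1D was also lower with PP121 in both pairs. PP121 was not tested within those identities.

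The identities in which CACNA1D differed also changed in share between samples. Glutamatergic neurons, which had less of it, were 24.8% and 43.7% of control neurons and 33.6% and 62.0% of PP121 neurons in replicates 1 and 2. GABAergic neurons, which had more, made up 44.9% and 26.3% in control and 42.3% and 16.2% with PP121, and nitrergic neurons 19.5% and 18.4% in control and 17.6% and 9.32% with PP121. These shares are of all annotated enteric neurons. Those marked non-neuronal hold no identity and were more common with PP121, which lowers the PP121 shares. Without them GABAergic neurons were 1032 of 2285 and 329 of 1234 in control and 858 of 1887 and 158 of 915 with PP121. On that base their share was not lower with PP121 in replicate 1. Nitrergic neurons were 449 of 2285 and 230 of 1234 in control and 358 of 1887 and 91 of 915 with PP121. The study reports that PP121 raised the proportion of nitrergic neurons, as measured by protein staining or a reporter line rather than imputed identity. The part of the identities in the CACNA1D difference was not tested. In clusters drawn on all samples together, 475 of 2301 and 348 of 1250 annotated control neurons fell into the cluster made mostly of progenitors, against 207 of 2030 and 118 of 976 with PP121.

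**Figure D4:**
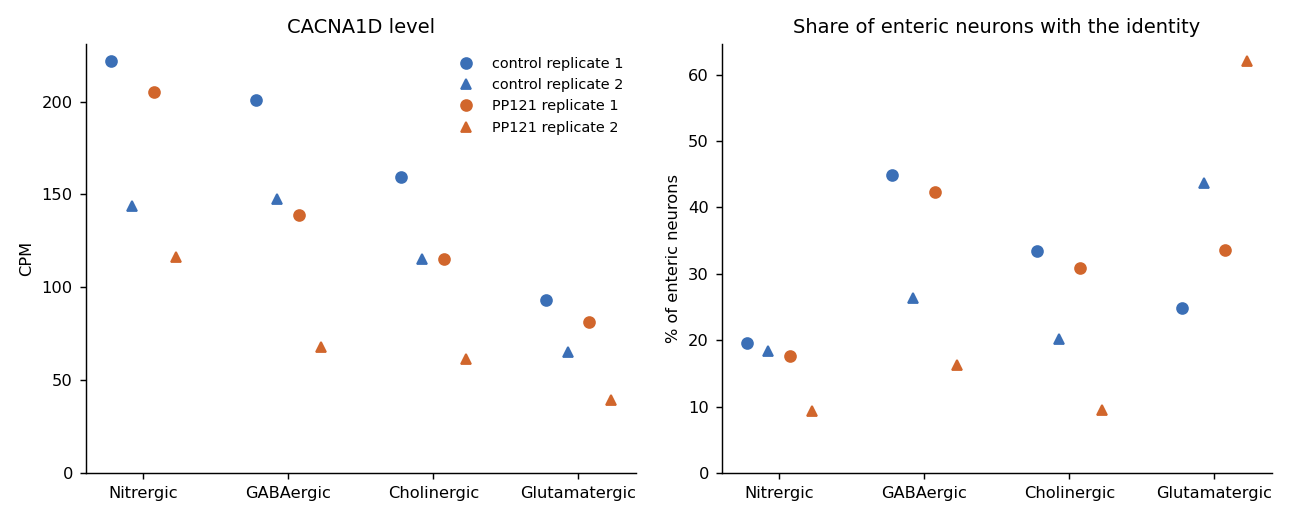
Left, CACNA1D level in CPM in neurons of 4 transmitter identities, and right, the share of all annotated enteric neurons with each identity in percent. Each point is 1 sample, with colour for treatment and marker shape for replicate. Glutamatergic neurons hold the least CACNA1D of the 4 identities in every sample (39.1 to 93.1 CPM) and are the most common of them in both replicate 2 samples (43.7% and 62.0%).

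No other member passed the test over all neurons, with or without the block. CACNA1B had PP121 to control ratios of 1.02 and 1.20 (0.18 with the block, adjusted p = 0.183), CACNA1C 1.04 and 0.970, CACNA1A 1.22 and 0.881 and CACNA1E 0.801 and 0.992. CACNA1H (0.943 and 0.713), CACNA1I (0.788 and 0.559) and CACNA1S (0.716 and 0.724) were below their controls in both pairs, at adjusted p-values of 0.392, 0.321 and 0.649 with the block. In nitrergic neurons CACNA1A rose from 315 to 404 CPM in replicate 1 and from 238 to 258 CPM in replicate 2, a log2 difference of 0.37 ± 0.131 with the block (edgeR adjusted p = 0.0475) and 0.39 without it (0.468), and DESeq2 with the block did not call it (0.555). The groups overlapped there, since control replicate 1 was above PP121 replicate 2. CACNA1C was at 0.33 with the block (0.0724), with ratios of 1.15 and 1.17. Among neurons thinned to 2000 UMIs, CACNA1H alone was lower in both PP121 samples than in both controls, with 3.41% and 2.77% of nuclei holding a UMI against 4.10% and 4.57%. The difference was -1.25 percentage points (two-sided exact permutation p = 0.333, adjusted 1, and 0.333 is the smallest p that 2 samples against 2 allow), and 19.6% of all genes with a UMI separated in that direction. This did not hold at the other thinned depths. At 1000 UMIs CACNA1H overlapped with a higher PP121 mean, CACNA1E separated lower and CACNA1B higher. At 4000 UMIs CACNA1H overlapped, CACNA1D separated lower and CACNA1B higher. The share of all genes that separated was not taken at these depths, so nothing is drawn from these separations.

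**Figure D5:**
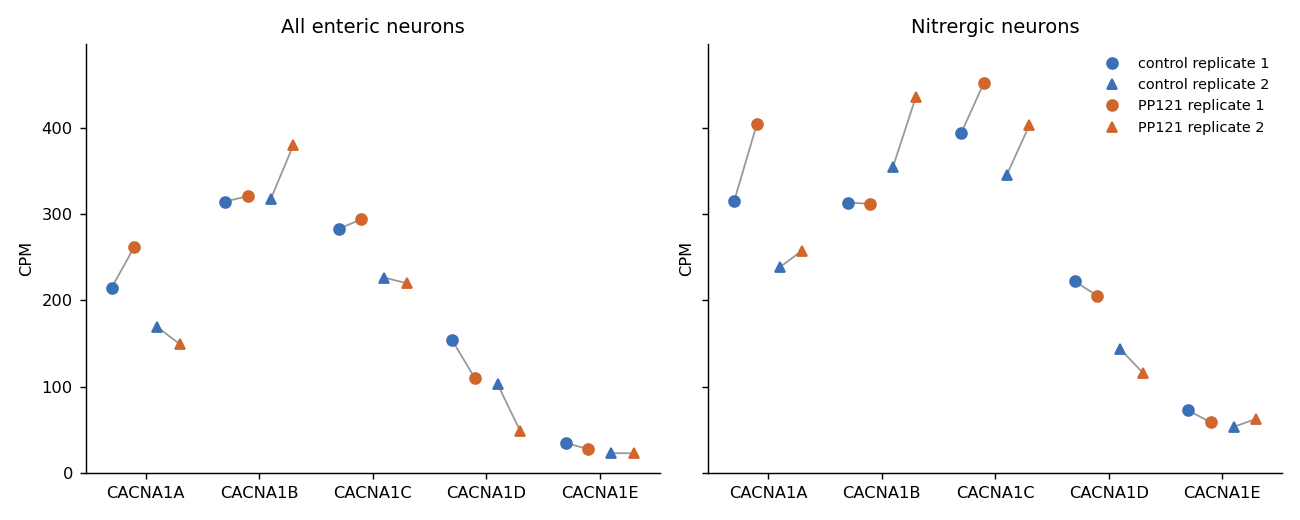
Level in CPM of the 5 most abundant members in all enteric neurons and in nitrergic neurons, with circles for replicate 1, triangles for replicate 2, colour for treatment and lines joining control and PP121 of the same replicate. CACNA1D goes down along both lines in all neurons (ratios 0.713 and 0.469), and CACNA1A goes up along both lines in nitrergic neurons (ratios 1.28 and 1.08).

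In progenitors CACNA1E had 3.72 and 1.92 CPM in control and 5.35 and 9.35 CPM with PP121, ratios of 1.44 and 4.88. Both PP121 samples were above both controls, at a log2 difference of 1.29 ± 0.345 with the block (edgeR adjusted p = 0.0370) and 1.35 ± 0.416 without it (0.806). Of the 80 CACNA1E UMIs in PP121 replicate 1, 25 lay in 1 nucleus. Without 2 progenitor nuclei of that sample rich in CACNA1E or CACNA1S UMIs its level was 3.68 CPM, below control replicate 1, so the groups overlapped. The difference was then 1.03 with the block (0.167), and DESeq2 with the block did not call it (0.728). CACNA1D had ratios of 0.795 and 0.575 in progenitors (-0.57 with the block, 0.203). Whether PP121 acted differently in neurons and progenitors was tested as an interaction, which edgeR found for 0 of 9 members and 0% of 21787 genes (2123 genes at an unadjusted p below 0.05, and 76 by DESeq2, of which 0 were members). CACNA1E had the lowest p among the members, at -1.45 ± 0.372 (0.249), and without PP121 replicate 1 it was at -2.04 (0.0195).

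The alpha2delta subunit CACNA2D1, which traffics channels to the surface and binds gabapentin, had a larger difference than any alpha-1 gene tested in neurons. It had 158 and 409.5 CPM in control and 400 and 1151 CPM with PP121, higher with PP121 in both pairs, and was at 1.46 ± 0.0875 with the block (edgeR adjusted p = 9.10e-12). Control replicate 2 and PP121 replicate 1 stood close together, so the groups overlapped. CACNA2D1 was higher in glutamatergic and lower in GABAergic and cholinergic neurons, and the shares of these identities changed between samples. The part of these shares in its difference was not tested. Without the block edgeR called no gene, as given above. With it, 4 of 15 auxiliary subunits were higher in neurons, CACNA2D1, CACNG8 (0.68), CACNG5 (1.02) and CACNG4 (0.36), and CACNB2 was lower (-0.31). RIMS2 (0.58), ERC2 (0.33), RIMS1 (0.28) and SYT1 (0.29) were higher and PCLO (-0.39) and UNC13A (-0.39) lower among 11 active zone genes, and 0 of 11 regulators passed. In progenitors CACNA2D1 (1.56), CACNG8 (1.04), STAC (1.74) and RIMS2 (0.75) were higher. In nitrergic neurons CACNA2D3 (0.66), CACNA2D1 (0.64), CACNG8 (0.83), RIMS2 (0.87), ERC2 (0.74), RIMS1 (0.67) and SYT1 (0.39) were higher and GEM (-1.68) lower.

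The same fit compares the days, with treatment as the covariate. In neurons 3 of 9 members were higher at day 42 than at day 38, against 3.68% of all genes. CACNA1D had 154 and 110 CPM at day 42 and 103 and 48.2 CPM at day 38, in control and PP121, and was at 0.81 ± 0.114 (edgeR adjusted p = 1.71e-05). Both treatments had more at day 42, and the days did not overlap. CACNA1A was at 0.52 (8.11e-04) and CACNA1C at 0.31 (0.0226), the latter not called by DESeq2, while CACNA1E was at 0.39 (0.0686) and CACNA1B at -0.19 (0.209). In progenitors 1 of 9 members was higher at day 42, against 1.41% of all genes. It was CACNA1A (0.78, 0.0174), with 60.9 and 71.3 CPM at day 42 against 38.7 and 32.7 CPM at day 38, and DESeq2 did not call it. In control replicate 1, 91 of the 599 CACNA1A UMIs of progenitor 2 lay in 1 nucleus. In control replicate 2, 65 of the 187 of progenitor 1 did. The day fit was not run without these nuclei. CACNA2D1 was lower at day 42 in neurons (-1.51, 7.58e-12) and in progenitors (-1.04, 2.98e-04). CACNA2D3 (0.65), CACNA2D2 (0.60) and CACNB2 (0.33) were higher and CACNG5 (-1.08) lower in neurons among 15 auxiliary subunits. CALN1 was higher and RIMS2 lower in neurons, and UNC13A higher in progenitors, among the regulators and active zone genes. Because day and differentiation replicate are the same split, the 2 cannot be told apart. Shares of the identities also differed between the days, and their part in these differences was not tested.

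Likeness in pattern was described with Pearson's r of log2(CPM + 1) over 18 sums of class and sample, among genes with a mean of at least 10 CPM. These sums share libraries, and the r values are a description only. CACNA1B ran closest with INA, the neurofilament alpha-internexin (0.975), SMPD3 (0.970) and RGMB (0.969). CACNA1E ran with FGF12 (0.925), CDH18 and KSR2, CACNA1C with CPE (0.954), the carboxypeptidase that matures neuropeptides, PRICKLE1 and SGCD, and CACNA1A with AL358232.2 (0.938), INSR and PID1. CACNA1D had lower values, with SLC22A15 at 0.890, SIDT1 at 0.885 and TRIO at 0.884. CACNA1H ran with PIP5K1C (0.917), PJA1 and PCAT7, and CACNA1G with PALM2-AKAP2 (0.905), CCDC3 and DCLK1. Among the members, CACNA1A and CACNA1D were most alike (0.860), followed by CACNA1A and CACNA1C (0.812), whereas CACNA1B and CACNA1C had an r of 0.299. The antisense gene CACNA1C-AS1 had 140, 44, 127 and 32 UMIs in neurons, and since the use of strand is not given in the sources used here, some could come from CACNA1C.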

How the data were processed

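The authors prepared droplet single-nucleus libraries with hashtag labels and deposited 1 count matrix per sample, each entry a whole count of UMIs, accompanied by annotations of each nucleus. The study's methods name kallisto and bustools for counting, while the submitters' processing notes name Cell Ranger, Seurat 4.0.4 and GRCh38, so which made these counts was not settled. The deposited percent of mitochondrial counts entered the authors' quality filter and was used here only as their filter left it. Classes and transmitter identities are the authors', the identities resting on ALRA-imputed values. Nuclei without a class were left out, and no doublet caller was run here.

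For each sample, the counts of all nuclei in a class or identity were added up and compared in edgeR 4.0.16 (R 4.3.3) with TMM, filterByExpr and the two-sided quasi-likelihood test. Adjusted p-values are Benjamini-Hochberg over all genes tested, at 0.05, and an SE is the absolute log2 difference divided by the square root of F. A list gene was named where it was among the 4 with the smallest p of its test or made up a count of 5 or fewer. The 10 members and the 3 partner lists (auxiliary subunits, direct regulators, active zone genes) and the markers were chosen with earlier results of these data known. The result of 1 regulator is not reported here, whether or not it passed, and all regulator counts leave it out. Promoter sequences are from RefSeq.

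PP121 comparisons had no block in the first place. Because the replicate number marks a shared day in the annotation, and deviations from the group means of samples with the same number correlated at 0.421 in neurons, 0.284 in progenitors and 0.208 in nitrergic neurons, the fit with the replicate as a block is given where it changes a call. Class and identity comparisons had the sample as a block, and an identity was compared only where both sides held at least 20 nuclei. The alternatives were DESeq2 1.42.0, other filters on low counts, leaving out each sample, clusters drawn on all samples with scanpy 1.11.5, leaving out the 5% deepest nuclei and other thinning depths. DESeq2 with the block, the deepest nuclei left out with the block, and the fits without nuclei rich in CACNA1E or CACNA1S and without neurons marked non-neuronal were chosen after seeing the data. The scripts were tested on simulated data.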

Additional observations from a re-analysis of the deposited data

How the results depend on the processing

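For the 37 member values that passed as first fitted or with the replicate block, 293 alternatives were run. The direction and side of the threshold stayed in 270, 13 lost the call, 10 passed where the first fit had not, and 0 reversed. For PP121 in enteric neurons the count of members called was 0, and 1 (CACNA1D) with the replicate block in edgeR, in DESeq2, in joint clusters, without the deepest nuclei and without neurons marked non-neuronal, and 0 to 1 on leaving out a sample. In progenitors it was 0, and 1 (CACNA1E) with the replicate block, with the block in joint clusters and with no filter on low counts. In nitrergic neurons it was 0, and 1 (CACNA1A) with the replicate block. The block changed no other call on a member. The day comparison in progenitors gave 1 member, 0 in DESeq2 and 2 with no filter. Leaving out a sample gave 2 to 3 members for progenitor 1 against progenitor 2 (4 with all samples), 2 to 4 for neurons against mesenchymal nuclei (2), 1 to 3 for cholinergic neurons (3), 0 to 1 for serotonergic neurons (0) and 0 to 1 for the interaction (0). With at least 10 counts in every sum, these were 2 for the progenitors, 0 for the mesenchymal comparison, where fewer members were tested, and 1 for serotonergic neurons. With no filter, serotonergic neurons gave 1 and the interaction 1. The share comparison separated 1 member at 2000 UMIs (CACNA1H, lower), 2 at 1000 UMIs (CACNA1E lower, CACNA1B higher), 2 at 4000 UMIs (CACNA1D lower, CACNA1B higher) and 3 without thinning (CACNA1H and CACNA1I lower, CACNA1B higher). At 1000 UMIs the CACNA1H difference had the opposite sign, 0.450 percentage points. The share of all genes that separated was taken at 2000 UMIs alone and for the lower direction. The other counts of separated members therefore have no share to be set against. Where not stated, the cause was not tested. Leaving out a sample was not run for the days, since no residual degrees of freedom remain. Depth limits CACNA1F, CACNA1S and CACNA1I, and the mesenchymal sums of 40 and 33 nuclei.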

Other observations

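Nuclei that the deposited annotation leaves without a class held the alpha-1 genes as well, at a median of only 666 to 822.5 UMIs per nucleus. Control replicate 1 had 15305015 UMIs over 4248 such nuclei. The deeper of these nuclei hold most of the UMIs in each sample, so the summed levels below describe mainly them. CACNA1B was the most abundant member among them, with 208, 179, 233 and 208 CPM in the 4 samples in the order used above, below the enteric neurons of every sample and above the progenitors. CACNA1D had 86.4, 63.5, 62.0 and 37.4 CPM there, and was lower with PP121 in both pairs. These nuclei belong to no comparison above.

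The annotated enteric neurons that the identity columns mark as non-neuronal made up 0.695% and 1.28% of control neurons and 7.04% and 6.25% of PP121 neurons. Their median UMI counts were 9306.5, 12450.5, 14387 and 12198, above those of all neurons in each sample. They held 274, 154, 222 and 216 CPM of CACNA1B, against 315, 320, 334 and 396 CPM in the remaining neurons, and less CACNA1D than the remaining neurons in 4 of 4 samples. In PP121 replicate 1 the CACNA1D levels were 73.2 CPM and 115 CPM, and in PP121 replicate 2 they were 42.2 CPM and 48.8 CPM. The marked nuclei held only 10 and 4 CACNA1D UMIs in the control samples and 34 in PP121 replicate 2, so these differences rest on few counts.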
